A study of Homo sapiens with 6 samples.

Results

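PIEZO1, PIEZO2, TRPV1, TRPV2, TRPV3, TRPV4, TRPV6, TRPC1, TRPM7 and LRRC8A encode ion channels that have been linked to touch, stretch, osmotic swelling or calcium entry. The members were every probe set of an Affymetrix array that the platform annotation assigns to one of these 10 genes. This gave 28 probe sets of the 54675 on the array. Of these, 26 name 1 member alone and cover 9 genes, and 2 name TRPV1 together with the neighbouring kinase gene SHPK. RNA came from HaCaT cells, an established human keratinocyte line that became immortal spontaneously. In the treated group, 3 cultures were kept for 12 h in an incubator that produced a negative pressure gradient of 125 mmHg. The control group was 3 cultures of the same line at ambient pressure for 12 h. The labels name the cultures biological replicates 1 to 3 of each condition and do not state whether they were grown apart. The p-values therefore measure the spread between these 6 samples of 1 cell line. In bulk RNA, fewer cells carrying a transcript and less of it per cell cannot be told apart.

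PIEZO1 and PIEZO2 are large channels that open when the membrane is stretched or bent and let calcium and other cations in. PIEZO1 is the form known from epithelia, and PIEZO2 is the touch sensor of Merkel cells and sensory neurons. The TRP family is a broad group of cation channels: in keratinocytes TRPV3 is known as a warmth-activated channel and TRPV4 as a channel opened by warmth and hypotonic swelling. LRRC8A is the obligatory subunit of the volume-regulated anion channel, through which swollen cells release chloride and organic osmolytes. Gating of these channels is a property of the protein, whereas the arrays measured only transcript abundance.

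Values are log2 values of the authors, each probe set is 1 measurement, and a difference is negative minus ambient pressure on that scale. Signals of different probe sets depend on their probes, so they show how much signal a result rests on and not which transcript is more abundant. With 3 arrays in each group, that number limits the precision. Within a group, Pearson's r across probe sets (no independent replicates) was 0.989 to 0.996, and the values up to 0.991 all involved the arrays numbered replicate 3. As a sign of RNA quality, the ACTB control probe set at the 3' end exceeded that at the 5' end by 0.27 and 0.42 on the replicate 3 arrays at ambient and negative pressure. On the other 4 arrays the excess lay between 0.64 and 0.85. Of the keratinocyte markers, 7 of 8 measured ones lay above the median gene mean of 4.997, among them KRT14 at 12.23, KRT5 at 10.94 and SFN at 12.50. The exception was KRT16 at 4.88. Of the Merkel cell markers, 1 of 5 did (ISL1, 5.32), with KRT20 at 2.93 and ATOH1 at 3.78. Of the lists for sensory neurons, fibroblasts, melanocytes, endothelial and immune cells, 2 of 4, 1 of 6, 1 of 4, 1 of 4 and 0 of 3 measured markers did. These were TUBB3 (10.50) and PRPH (5.88), COL1A1 (6.78), MITF (6.08) and PECAM1 (5.04). The signal of the sensory neuron marker TUBB3 was thus in the range of the keratinocyte markers. Of all these markers the endothelial gene CDH5 was the 1 called (0.920% of all genes were). Its mean of 4.41 lay below the median gene mean, and it was lower by 0.80 under negative pressure (limma adjusted p = 0.0325).

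The comparison asked whether the transcripts of these channels differed after 12 h of negative pressure. No channel gene passed an adjusted p of 0.05. In limma across 19775 genes, 0 of the 9 measured channel genes were called, against 0.920% of all genes. At an unadjusted limma p under 0.05 there were 2 of 9, PIEZO1 and TRPV6, against 11.7% of all genes. The differences of the 9 genes ran from -0.13 for PIEZO2 to 0.36 for TRPV6, with 4 above 0 and 5 below. Of all 19775 genes, 10567 lay above 0 and 9208 below. The 9 channel genes are compared with all genes in what follows. Their median was -0.031, beside 0.015 over all genes. All 9 lay between the 5th and 95th percentiles of the differences of all genes, -0.33 and 0.37. The 95% intervals, not adjusted for the number of genes, bound the signal difference of the 1 probe set that represents each gene. For all 9 genes they ended below a 2-fold change in either direction. For 7 of 9 they ended below 1.5-fold, the exceptions being TRPV6 and TRPM7. They do not bound the change of a transcript with weak signal, and the interval of another TRPM7 probe set, 237884_x_at, reached -1.01.

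**Figure D1:**
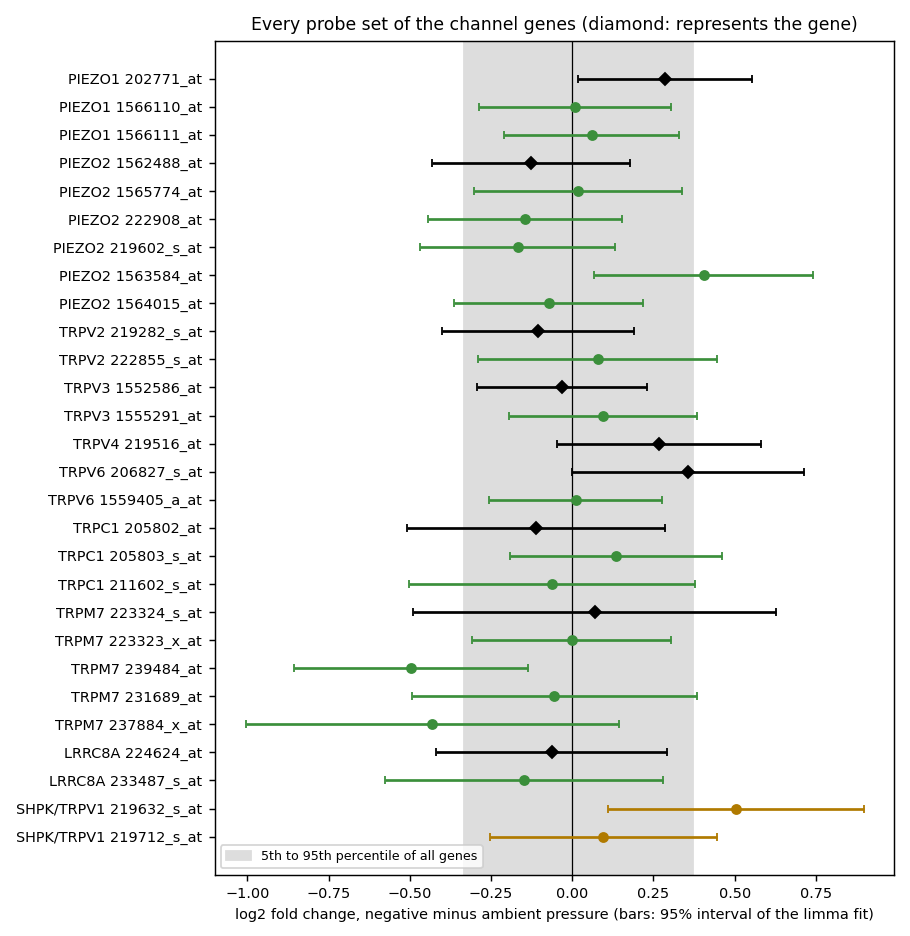
Log2 fold changes (x axis, negative minus ambient pressure) of the 28 probe sets of the channel genes with 95% intervals from the limma fit over all probe sets; the grey band spans the 5th to 95th percentile of all genes. Black diamonds represent a gene, green points are its other probe sets and brown points are shared with SHPK. The largest differences are the shared probe set 219632_s_at at 0.50 and TRPM7 239484_at at -0.50; none passed an adjusted p of 0.05.

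At the level of single probe sets, 0 of 26 passed in limma over 54613 probe sets, against 0.480% of all. At an unadjusted limma p under 0.05 there were 3 of 26, against 9.86% of all probe sets. The 3 were 202771_at of PIEZO1, 1563584_at of PIEZO2 and 239484_at of TRPM7, whereas the interval of TRPV6 206827_s_at held 0 in this fit (-0.0015 to 0.71). The 2 groups did not overlap in 4 of 26, 3 higher (8.44% of all probe sets were) and 1 lower (6.56%), against 15.0% of all in either direction. The fourth was 219516_at of TRPV4. The adjusted p-values of the 26 ran from 0.289 to 0.999. Of the 26 intervals, 25 ended below a 2-fold change. The exception was the dim TRPM7 probe set 237884_x_at.

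PIEZO1 was carried by 1 bright probe set, 202771_at, with ambient values of 8.04, 8.15 and 8.18 and negative pressure values of 8.43, 8.27 and 8.52. The 3 negative pressure arrays lay above the 3 ambient ones, with a gap from 8.18 to 8.27 between the groups. The means were 8.12 ± 0.075 and 8.41 ± 0.12 (SD, n = 3 each), a difference of 0.28 ± 0.12 (SE; 95% interval 0.021 to 0.55; limma adjusted p = 0.378). This is 1.22-fold and did not pass. Among the 9 genes, 2 had groups that did not overlap, PIEZO1 and TRPV4, both higher, against 17.3% of all genes (10.3% higher). The difference of PIEZO1 ran from 0.23 to 0.35 when any 1 array was left out. The other 2 PIEZO1 probe sets were much dimmer, with means of 4.24 for 1566110_at and 3.45 for 1566111_at. They stood at 0.0087 (95% interval -0.29 to 0.30) and 0.060 (-0.21 to 0.33). Both intervals hold 0 as well as the difference of the bright probe set, and the mean of all 3 stood at 0.12.

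PIEZO2, the touch channel of Merkel cells, had 6 probe sets with means from 1.58 to 4.36, all below the median gene mean of 4.997. The brightest, 1562488_at, read 4.39, 4.37 and 4.50 at ambient and 4.15, 4.20 and 4.53 under negative pressure, and the groups overlapped. Its difference was -0.13 ± 0.13 (SE; 95% interval -0.43 to 0.17; limma adjusted p = 0.825). Of the other 5, 1563584_at was higher on every negative pressure array, at 1.83, 1.94 and 2.35 against 1.71, 1.61 and 1.58. That difference, 0.41 (limma adjusted p = 0.382), rests on one of the dimmest probe sets, with a mean of 1.84, above 11.6% of all probe sets. With negative pressure replicate 3 left out it was 0.25, and leaving out the third replicate of each group gave 0.23. The remaining 4 stood between -0.17 and 0.018. No PIEZO2 probe set reached the median gene mean on any array, though by its mean 1562488_at lay above 57.9% of all probe sets.

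**Figure D2:**
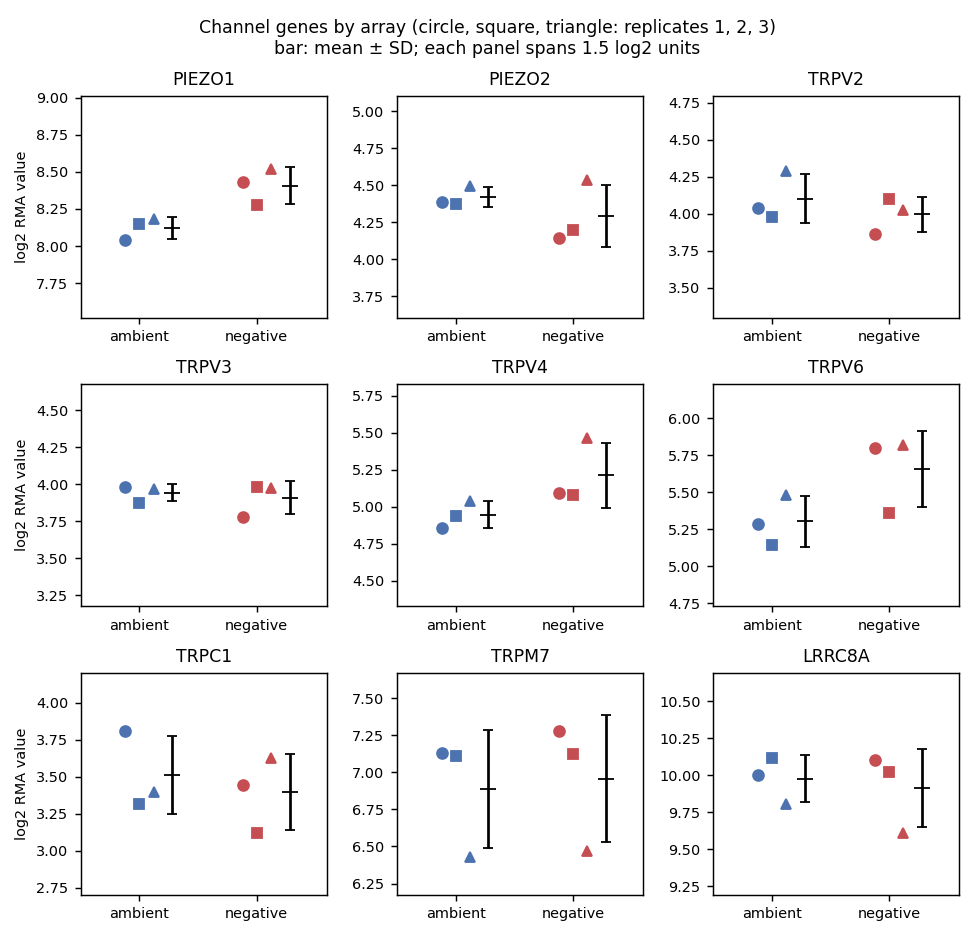
Log2 values (y axis) of the probe set that represents each of the 9 measured channel genes on the 3 ambient (blue) and 3 negative pressure (red) arrays; black bars are means with SD, and each panel spans 1.5 log2 units. PIEZO1 and TRPV4 have groups that do not overlap, TRPV6 overlaps by 1 array, and TRPM7 and LRRC8A are lowest on the replicate 3 arrays (triangles) of both groups.

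Among the vanilloid-type TRP channels, TRPV4 and TRPV6 had the larger differences. TRPV6 is a highly calcium-selective epithelial channel, and 206827_s_at read 5.28, 5.14 and 5.48 at ambient and 5.80, 5.36 and 5.82 under negative pressure. Negative pressure replicate 2 lay below the highest ambient array, so the groups overlapped. The difference was 0.36 ± 0.16 (SE; 1.28-fold; 95% interval 0.0027 to 0.71; limma adjusted p = 0.423, and 0.0994 with the replicate number as a block). Negative pressure was higher within each replicate number, by 0.51, 0.22 and 0.34. The other TRPV6 probe set, 1559405_a_at, was dimmer at a mean of 3.41 and stood at 0.011 (-0.26 to 0.28). That interval leaves out the difference of the brighter one, and the mean of both stood at 0.18.

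TRPV4, a channel opened by warmth and cell swelling, had 1 probe set, 219516_at, with values of 4.86, 4.94 and 5.04 at ambient and 5.09, 5.08 and 5.47 under negative pressure. Its mean over all arrays, 5.08, lay close to the median gene mean of 4.997, and its ambient mean of 4.95 lay below it. The groups were separated by the narrow gap from 5.04 to 5.08, and negative pressure replicate 3 was the highest array. The difference was 0.27 ± 0.14 (SE; 95% interval -0.044 to 0.58; limma adjusted p = 0.518) and was 0.14 without negative pressure replicate 3. TRPV3, the warmth-activated keratinocyte channel, read 3.98, 3.88 and 3.97 and then 3.78, 3.98 and 3.97 on 1552586_at, a difference of -0.031 (95% interval -0.29 to 0.23; limma adjusted p = 0.962). TRPV2, a channel of noxious heat and stretch, read 4.04, 3.98 and 4.29 and then 3.86, 4.10 and 4.02 on 219282_s_at, a difference of -0.10 (-0.40 to 0.19; limma adjusted p = 0.863). The groups overlapped for both, and the second probe set of each stood on the other side of 0, at 0.093 for TRPV3 and 0.078 for TRPV2. All 4 of these probe sets lay below the median gene mean, which is taken over the brightest probe set of each gene. Against all probe sets, 1552586_at lay above 51.3% and 219282_s_at above 53.2%.

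The capsaicin receptor gene TRPV1 could not be measured alone. Both probe sets that name it also name SHPK, and the reference transcript listed for 219712_s_at belongs to SHPK in the RefSeq table. The shared probe set 219632_s_at read 3.46, 3.68 and 3.23 at ambient and 3.84, 3.75 and 4.29 under negative pressure, without overlap. Its difference of 0.50 (95% interval 0.11 to 0.90; limma adjusted p = 0.341) did not pass and was 0.23 without both replicate 3 arrays. The other shared probe set read 4.32, 4.51 and 4.24 and then 4.19, 4.45 and 4.72, with overlapping groups and a difference of 0.095 (-0.25 to 0.44). Neither value can be assigned to TRPV1 or to SHPK.

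The stretches before the annotated starts of PIEZO1 and TRPV6 are shown because these 2 genes had the smallest p-values of the 9, and they differ in base composition. Each is the 250 bases upstream of a RefSeq gene start in GRCh38.p14, written 5′ to 3′ along the gene's own strand, the minus strand for both. Capitals mark CG dinucleotides, the sites of DNA methylation, which read the same on both strands.
PIEZO1, chr16:88785221-88785470: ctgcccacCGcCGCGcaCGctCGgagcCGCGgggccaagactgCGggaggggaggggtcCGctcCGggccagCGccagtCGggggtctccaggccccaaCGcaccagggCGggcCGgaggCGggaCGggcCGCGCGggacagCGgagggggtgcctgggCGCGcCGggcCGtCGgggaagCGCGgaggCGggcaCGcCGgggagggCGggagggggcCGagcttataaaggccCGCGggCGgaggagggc
TRPV6, chr7:142885746-142885995: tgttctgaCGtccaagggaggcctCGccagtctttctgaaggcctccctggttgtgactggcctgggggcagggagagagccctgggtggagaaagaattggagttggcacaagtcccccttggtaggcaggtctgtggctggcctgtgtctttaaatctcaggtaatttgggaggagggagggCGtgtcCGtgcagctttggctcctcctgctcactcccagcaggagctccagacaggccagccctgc
The PIEZO1 stretch holds 36 CG dinucleotides, more than 95.2% of the 35116 stretches of this length in the RefSeq table, and the TRPV6 stretch 4, more than 29.3%. The median is 11. The GC box GGGCGG, searched on both strands, occurs 3 times in the PIEZO1 stretch and 0 times in the TRPV6 one, and 42.6% of all stretches hold it. These counts describe the reference sequence only, since neither methylation nor binding was measured.

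TRPC1, a subunit of canonical TRP channels linked to store-operated calcium entry, gave weak signals on all 3 of its probe sets. The brightest, 205802_at, read 3.81, 3.32 and 3.40 at ambient and 3.44, 3.12 and 3.63 under negative pressure. The groups overlapped, and ambient replicate 1 was the highest array. The difference was -0.11 ± 0.17 (SE; 95% interval -0.50 to 0.28; limma adjusted p = 0.895). The other 2 had means of 2.45 and 1.998 and stood at 0.13 and -0.064.

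TRPM7 is a magnesium- and calcium-permeable channel fused to a protein kinase, and its 5 probe sets gave differences from -0.50 to 0.069. The brightest, 223324_s_at, read 7.13, 7.11 and 6.43 at ambient and 7.28, 7.13 and 6.47 under negative pressure, a difference of 0.069 ± 0.25 (SE; 95% interval -0.48 to 0.62; limma adjusted p = 0.961). On this probe set both replicate 3 arrays lay far below the other 4 arrays, 6.45 on average against 7.16. Within replicate numbers the differences were 0.15, 0.017 and 0.043. Probe set 223323_x_at stood at -0.0021 (95% interval -0.31 to 0.30).

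The probe set 239484_at of TRPM7 was lower on every negative pressure array, at 4.72, 4.23 and 4.54 against 5.11, 5.09 and 4.76. The difference of -0.50 ± 0.16 (SE; 95% interval -0.86 to -0.14) had the smallest adjusted p of the 26 probe sets, 0.289 in limma and 0.111 with the replicate block, and did not pass. It ran from -0.61 to -0.36 when 1 array was left out. Set against 223324_s_at on the same array, 239484_at was lower by 1.90 ± 0.20 at ambient and by 2.47 ± 0.49 under negative pressure (SD, n = 3 each). Within replicate numbers the negative pressure array was lower in this respect in all 3 pairs, with differences of -0.55, -0.88 and -0.27. An exact two-sided permutation test gave p = 0.3 over arrays and p = 0.25 over the signs of the pairs. Neither can pass here, since the smallest p they allow are 0.1 and 0.25. In addition, 239484_at was picked for this because its difference was the largest among the TRPM7 probe sets. The remaining probe sets were 231689_at at -0.055 and the dim 237884_x_at at -0.43, whose interval was the widest of all, -1.01 to 0.14. Without ambient replicate 3 the latter stood at -0.13. 237884_x_at read higher on the replicate 3 arrays, 2.35 on average against 1.65, opposite to the brightest.

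**Figure D3:**
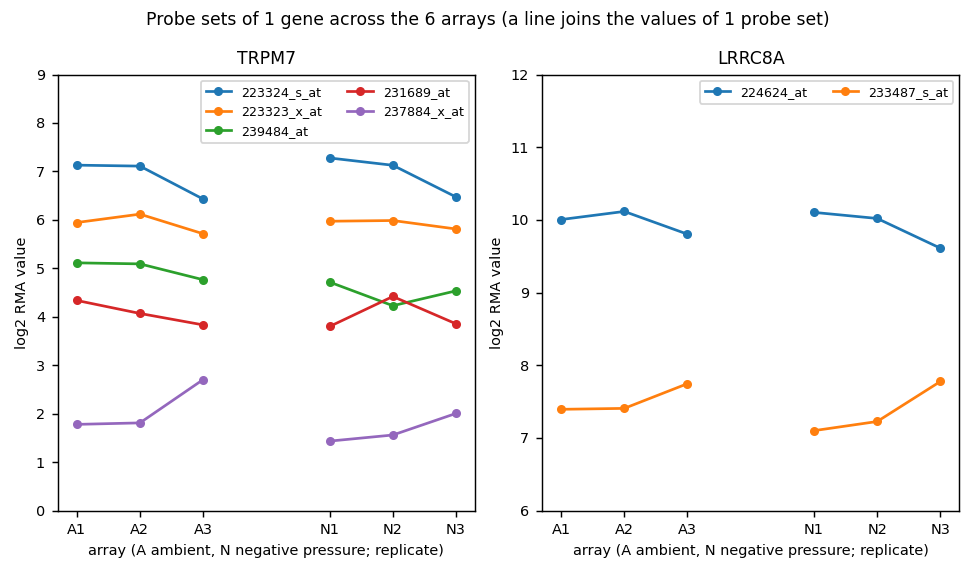
Log2 values (y axis) of the 5 TRPM7 and 2 LRRC8A probe sets on each array (x axis: A ambient, N negative pressure, with the replicate number). On the replicate 3 arrays TRPM7 223324_s_at and LRRC8A 224624_at are lower and TRPM7 237884_x_at and LRRC8A 233487_s_at higher than on the other arrays, in both groups.

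LRRC8A gave the strongest signal of the channel probe sets, above 97.7% of all probe sets. Probe set 224624_at read 10.004, 10.12 and 9.80 at ambient and 10.10, 10.02 and 9.61 under negative pressure. The groups overlapped, and negative pressure replicate 3 was the lowest array. The means were 9.97 ± 0.16 and 9.91 ± 0.26 (SD, n = 3 each), a difference of -0.064 ± 0.16 (SE; 95% interval -0.42 to 0.29; limma adjusted p = 0.940). On the linear scale this interval runs from 0.750-fold to 1.22-fold. The second probe set, 233487_s_at, read 7.39, 7.41 and 7.75 and then 7.10, 7.23 and 7.78, a difference of -0.15 (-0.58 to 0.28). Set against 224624_at on the same array, its value differed by -0.084 between the groups. The exact two-sided permutation test gave p = 0.8 over arrays and p = 0.75 over the signs of the pairs, with the same smallest p as for TRPM7. The 2 probe sets stood on opposite sides on the replicate 3 arrays: 224624_at averaged 9.71 there against 10.06 on the other arrays, and 233487_s_at 7.76 against 7.28. The excess of the 3' over the 5' ACTB signal was also lowest on these 2 arrays, and its part in the offset was not tested.

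LRRC8A forms the anion channel together with LRRC8B, LRRC8C, LRRC8D or LRRC8E. Of these 4 subunit genes 0 passed over all genes (0.920% of all genes did). Of the 4, 3 lay below 0, beside 9208 of all 19775 genes, and the median was -0.29 beside 0.015 for all genes. LRRC8B read 7.19, 7.15 and 6.65 at ambient and 6.69, 6.27 and 6.26 under negative pressure on its brightest probe set, 212978_at. The difference was -0.59 ± 0.18 (SE; 95% interval -0.99 to -0.18; limma adjusted p = 0.213). With the replicate block it passed over all genes (limma adjusted p = 0.0205) and, narrowly, over all probe sets (limma adjusted p = 0.0498). No label states that same-numbered arrays were paired, and 4.94% of all genes passed with the block. Over all genes LRRC8B passed in this 1 of 14 alternatives. The groups overlapped by 1 array, negative pressure replicate 1. The 2 dimmer LRRC8B probe sets stood at 0.24 and -0.035, and the mean of all its probe sets at -0.13.

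LRRC8C read 7.30, 6.94 and 6.77 and then 6.61, 6.83 and 6.16 on 223533_at, a difference of -0.47 ± 0.20 (SE; limma adjusted p = 0.387, block 0.0632). Its 4 brighter probe sets lay between -0.51 and -0.36 and the dimmest at -0.080, with no call in any. On 3 of these 4, 228314_at, 1558517_s_at and 1570007_at, the groups did not overlap, all lower (6.56% of all probe sets were), and on 223533_at they overlapped. These probe sets read 1 gene on the same arrays and were chosen after their values were seen, so they are no separate evidence. The difference on 223533_at was -0.28 without negative pressure replicate 3. LRRC8D stood at 0.20 (95% interval -0.19 to 0.59) and LRRC8E at -0.11 (-0.36 to 0.15). Whether LRRC8B or LRRC8C differed more than LRRC8A was not tested.

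Other genes around these channels were taken from 6 lists, with 79 of 87 different genes measured, and 0 passed over all genes in limma (0.920% of all genes did). At an unadjusted limma p under 0.05 there were 12 of 79 (15.2%), against 11.7% of all genes. With the replicate block 3 of 79 passed, LRRC8B, SCNN1A and SGK1, against 4.94% of all genes. As a yardstick for the counts in each list, 10567 of all 19775 genes lay above 0 and 9208 below. Among 17 other TRP and related channels, 12 lay above 0 and 5 below, with a median of 0.066, and 1 lay above the median gene mean. The smallest p-values there were those of TRPM5, a calcium-activated monovalent cation channel (0.30), and MCOLN3, a lysosomal calcium channel (-0.34), both on weak signals with means of 3.03 and 2.32. MCOLN3 stood at -0.19 as the mean of all its probe sets and at -0.18 without both replicate 3 arrays.

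Among 16 other mechanosensitive or stretch-sensitive channels, 7 lay above 0 and 9 below, with a median of -0.034. SCNN1A, the alpha subunit of the epithelial sodium channel, read 5.70, 5.73 and 5.88 at ambient and 6.15, 5.97 and 6.71 under negative pressure. It was higher on all negative pressure arrays, with a difference of 0.50 ± 0.18 (SE; limma adjusted p = 0.302, block 0.0464). With the block over all probe sets, the same probe set, 203453_at, did not pass (limma adjusted p = 0.0944). The difference ran from 0.29 to 0.66 when 1 array was left out and was lowest without negative pressure replicate 3. Its 2 other probe sets stood at 0.068 and 0.025. CFTR, a chloride channel, stood at 0.29 on a weak signal (mean 2.91). Averaged over its probe sets CFTR stood at 0.060, and its probe set of largest variance at 0.049.

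Of the 10 PIEZO partners and modulators, 5 lay above 0 and 5 below, between -0.12 and 0.29, with a median of -0.0093. STOM, the membrane protein stomatin, read 6.46, 6.43 and 6.51 and then 6.74, 6.74 and 6.78, a difference of 0.29 ± 0.10 (SE; limma adjusted p = 0.311) with groups that did not overlap. The mean of all STOM probe sets stood at 0.095 and its probe set of largest variance at 0.034. MDFIC, an auxiliary subunit of PIEZO channels, stood at 0.21 (95% interval -0.15 to 0.58), and as the mean over its probe sets at 0.13, against 0.65 on that of largest variance. Leaving out 1 array moved MDFIC to 0.067 (negative pressure replicate 2), 0.12 (ambient replicate 3) or 0.35 (negative pressure replicate 3).

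In the list of calcium entry, stores and effectors, 12 of 23 lay above 0, with a median of 0.037. ITPR1, a calcium release channel of the endoplasmic reticulum, stood at 0.40 ± 0.12 (SE; limma adjusted p = 0.206) on a weak signal with a mean of 2.93, and the mean of all its probe sets at 0.075. ATP2B4, a plasma membrane calcium pump, stood at 0.30 ± 0.13 (limma adjusted p = 0.404), the mean of all its probe sets at 0.18 and that of largest variance at 0.0032. In the list of cell volume and chloride transport, 7 of 10 lay below 0, with a median of -0.095. SGK1, a kinase that raises the activity of epithelial ion channels and transporters, read 8.23, 8.48 and 8.14 at ambient and 7.74, 7.71 and 7.56 under negative pressure, without overlap. Its difference of -0.61 ± 0.13 (SE; 95% interval -0.90 to -0.32) did not pass (limma adjusted p = 0.0730). It did with the replicate block (0.0107), with quantile normalization repeated (0.0363) and with cyclic loess (0.0329), at differences of -0.61, -0.63 and -0.64. SLC12A7, a potassium-chloride cotransporter of cell volume control, stood at 0.38 ± 0.13 (limma adjusted p = 0.267).

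**Figure D4:**
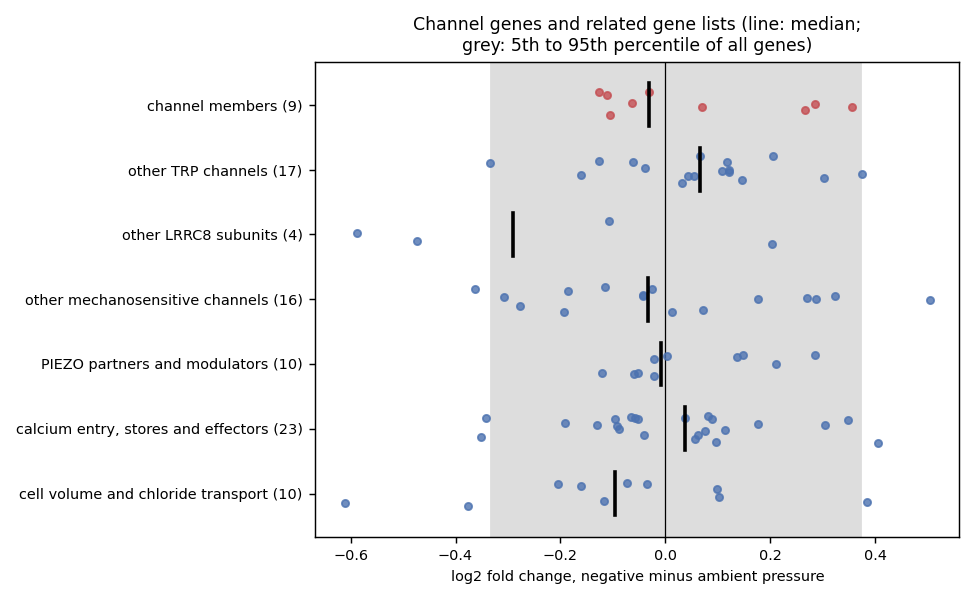
Log2 fold changes (x axis, negative minus ambient pressure) of the 9 measured channel genes (red) and of 6 lists of related genes (blue), 1 point per gene, with the median of each list as a black line and the 5th to 95th percentile of all genes in grey. The 9 channel genes lie within the grey band, and the lowest points are SGK1 and LRRC8B.

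The channel gene with the strongest signal, LRRC8A, was compared with all other genes for the shape of its values over the 6 arrays. The highest Pearson correlations were those of PRDM4 (0.998), CUL1 (0.994) and SLC30A6 (0.994), and 218 genes lay above 0.95. These values describe 6 arrays that share the offset of the replicate 3 arrays. Over the 4 arrays left without them the correlations were 0.988, 0.959 and 0.968. The genes were picked over all 6 arrays, which include these 4, so the choice itself favours high values here.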

How the data were processed

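Per the submitters' processing notes, the authors made the deposited log2 values with RMA, which corrects background, normalizes between arrays and summarises probe sets. The notes name Affymetrix Expression Console 1.2 as the software. They lay between 0.890 and 13.4. For scan dates, filters and genome build: not given in the sources used here. Groups and replicate numbers came from the sample titles.

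Probe sets were named from the platform annotation, 41091 with 1 symbol, 1801 with several and 11721 with none, besides 62 array controls; 41037 gene identifiers matched RefSeq. A gene was represented by its probe set of highest mean (19775 genes). Genes and all 54613 probe sets were fitted with lmFit and eBayes in limma 3.58.1 (R 4.3.3), without a block or filter, with two-sided Benjamini-Hochberg adjustment over the whole table at 0.05. Every adjusted p is from limma, and 95% intervals use the moderated spread. The fit was tested on simulated data.

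Members and lists were chosen with earlier results of these data known. List genes named are those past the threshold, otherwise the 2 of smallest p. Genes named beyond this were chosen after their values were seen. So were the LRRC8 and SCNN1A probe sets, the 2 pairs of probe sets tested and the promoter stretches. Deviations of same-numbered arrays from their group mean correlated at 0.27, 0.27 and 0.53 across genes, all over 0.1. On this basis they were treated as pairs in the replicate block and the paired test, not in the main fit. Deviations cancel within a group, so an offset shared by the replicate 3 arrays would also raise the values of replicates 1 and 2. The correlations therefore cannot decide whether arrays were paired, and no label states a shared day. The paired test of the probe set differences was added after seeing the data. The arrays' scanner files were not used here.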

Additional observations from a re-analysis of the deposited data

How the results depend on the processing

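No channel gene and no channel probe set passed under any alternative run: the replicate block, quantile normalization repeated, cyclic loess, the dimmest genes left out (66.7% kept), the mean of all probe sets or the probe set of largest variance, trend and robust variance, a threshold of 0.1, each array left out, and both replicate 3 arrays left out. Leaving out the dimmest genes removed TRPC1 and several dim channel probe sets, so these could not be called there. The mean of all probe sets and the probe set of largest variance were fitted over genes only. The replicate block, with its pairing by replicate number, gave 976 genes and 1242 probe sets in all and changed no call of a channel gene. LRRC8B (-0.59), SCNN1A (0.50) and SGK1 (-0.61) passed with it over all genes. Over all probe sets, LRRC8B 212978_at (limma adjusted p = 0.0498) and SGK1 201739_at (0.0294) passed with it and SCNN1A 203453_at (0.0944) did not. SGK1 also passed with the mean of all probe sets (adjusted p = 0.0498), at an unchanged difference on its 1 probe set. Over all genes SGK1 passed in 4 of 14 alternatives and did not in the other 10. Over all features, a threshold of 0.1 gave 352 genes and 625 probe sets, and leaving out both replicate 3 arrays 372 and 600. Leaving out 1 array gave 7 to 145 genes and 1 to 235 probe sets. The counts of genes and probe sets were 12 and 6 with ambient array 1 left out, 7 and 1 with ambient array 2, 102 and 98 with ambient array 3, 18 and 8 with negative pressure array 1, 7 and 1 with array 2 and 145 and 235 with array 3 of that group.

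PIEZO1, TRPV4 and TRPV6 kept their direction in all 14 alternatives each, but several of these could not turn it. The replicate block, trend and robust variance and leaving out the dimmest genes return the same difference as the main fit. The probe set of largest variance was the one already used for these genes. TRPV4 has 1 probe set, so the mean of all probe sets could not change it either. Signs of differences near 0 turned. With the mean of all probe sets TRPV3 stood at 0.031 and TRPM7 at -0.18; with the probe set of largest variance PIEZO2 stood at 0.41, TRPV2 at 0.078, TRPV3 at 0.093 and TRPM7 at -0.43, as another probe set was read. With quantile normalization repeated, 1566110_at stood at -0.0014 and 1559405_a_at at -0.0015, and with cyclic loess at -0.010 and -0.0010. Without both replicate 3 arrays LRRC8A stood at 0.0011, 1566110_at at -0.054, 222908_at at 0.0031, 1559405_a_at at -0.012, 211602_s_at at 0.11 and 219712_s_at at -0.095; the cause was not tested. Leaving out 1 array, signs also turned for TRPV3 (-0.066 to 0.035), TRPC1 (-0.23 to 0.039), TRPM7 (-0.16 to 0.31), LRRC8A (-0.16 to 0.087), 1566110_at (-0.077 to 0.12), 1566111_at (-0.025 to 0.11), 1565774_at (-0.11 to 0.13), 1564015_at (-0.14 to 0.022), 222855_s_at (-0.022 to 0.24), 1555291_at (-0.0012 to 0.18), 1559405_a_at (-0.057 to 0.056), 211602_s_at (-0.25 to 0.13), 223323_x_at (-0.11 to 0.094), 231689_at (-0.25 to 0.074) and 219712_s_at (-0.038 to 0.23). RMA values carry no detection call, and every probe set of PIEZO2, TRPV2, TRPV3 and TRPC1 lay below the median gene mean. By this yardstick, taken over the brightest probe set of each gene, their values rest on weak signals. Against all probe sets, the brightest of these 4 genes lay above 57.9%, 53.2%, 51.3% and 43.7% in this order.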
